A study of Mus musculus with 12 samples.

Results

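The 10 genes described here are transcription factors of the trophoblast lineage (Tfap2a, Tfap2c, Gata3, Cdx2, Elf5 and Hand1) and keratins of simple epithelia (Krt7, Krt8, Krt18 and Krt19). They were chosen by name, as genes used to mark trophoblast and simple epithelium, but with earlier results of these data known. All 10 were found among the 56691 mouse gene IDs measured. The cells were male mouse embryonic stem cells of the R1 line (129 background, grown on gelatin), and the assay was QuantSeq 3′ mRNA sequencing, which reads the 3′ ends of polyadenylated transcripts. There were 4 groups of 3 libraries: cells after 6 days of 2i, cells after 6 days of 2i with 25 µM of an MRE11 inhibitor, cells after 6 days of 2i with 50 µM of it, and untreated cells at day 0 in serum with LIF, which the labels call primed. All groups were the same line with no introduced mutation named in the labels, and the inhibitor is not named in the sources used here. Serum with LIF was not carried on to day 6 in any group, so an effect of 2i and an effect of time in culture cannot be told apart.

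2i is a medium with inhibitors of MEK and GSK3 that holds mouse embryonic stem cells in a naive state. In the mouse embryo the trophoblast is the first epithelium to form: CDX2, GATA3 and the AP-2 factor TFAP2C act in setting it up, ELF5 maintains its stem cells, and HAND1 acts in the giant cells that differentiate from it. Keratins of simple epithelia pair into filaments, a type II chain (KRT7 or KRT8) with a type I chain (KRT18 or KRT19), and KRT8 with KRT18 is the pair first made in the embryo. Embryonic stem cells keep most of this program low.

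The upstream sequences of a keratin pair that fell together in 2i, and of the factor that rose, are shown here so that the letters near each start can be read beside the values that follow. They come from RefSeq's table for GRCm38.p6, which held 9 windows for 7 of the 10 genes (Tfap2c, Krt19 and Hand1 were not among them), and are written 5′ to 3′ on each gene's strand. Those of Krt8 (chr15:102004483-102004592, minus strand) and Krt18 (chr15:102027966-102028179, plus strand) end where the GENCODE gene begins, and that of Tfap2a (chr13:40734921-40735170, minus strand) ends at the base before its RefSeq start. The Tfap2a stretch lies inside the GENCODE gene, which begins further upstream, at base 40738376. Capitals mark motif matches: AGATAA, bound by GATA factors, in Krt8, GCCNNNGGC, bound by AP-2 factors, in Krt18, and the reverse complement of TTTATG, bound by CDX factors, in Tfap2a.
Krt8: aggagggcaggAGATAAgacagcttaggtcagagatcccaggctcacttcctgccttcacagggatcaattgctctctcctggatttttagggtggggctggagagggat
Krt18: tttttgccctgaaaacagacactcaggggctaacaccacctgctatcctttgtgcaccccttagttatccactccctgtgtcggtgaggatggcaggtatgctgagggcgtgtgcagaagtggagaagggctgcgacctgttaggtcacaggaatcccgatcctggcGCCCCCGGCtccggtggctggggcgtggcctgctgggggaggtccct
Tfap2a: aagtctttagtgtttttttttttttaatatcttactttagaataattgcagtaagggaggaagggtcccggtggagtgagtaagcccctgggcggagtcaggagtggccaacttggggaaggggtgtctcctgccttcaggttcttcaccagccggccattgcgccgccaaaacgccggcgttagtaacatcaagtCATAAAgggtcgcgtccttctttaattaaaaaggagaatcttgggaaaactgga
For Krt7, on the plus strand, the AP-2 motif matched 2 times, and each match is shown with 10 bases on either side, at chr15:101412247-101412275 and chr15:101412323-101412351. Both sites lie before the RefSeq start but inside the GENCODE gene, which begins at base 101411043.
Krt7 site 1: tggacgaagaGCCTTGGGCggcggctggg
Krt7 site 2: gagaaaggtgGCCAGCGGCcagccccgcc
Both strands were searched over the 250 bases before each RefSeq start. Over all 32851 such windows the AP-2 motif was found in 13.7%, AGATAA in 9.99%, TTTATG in 10.8% and the ETS motif CCGGAAG in 6.91%, and no matches in the windows of these genes overlapped. Gata3 had 3 AP-2 matches, Cdx2 had 1, and 1 of the Elf5 windows had a TTTATG match. The other Tfap2a window, whose start lies downstream, held none of the 4 motifs. These matches describe letters only. Krt8 and Krt18 lie close together on chromosome 15 and point away from each other, with their starts 23.7 kb apart.

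Libraries held 5894561 to 7060126 counts, and 13230 genes passed the low-count filter and were tested. The filter keeps a gene with enough counts in as many libraries as 1 group holds. A gene kept only through primed cells is therefore favoured to come out lower in the other groups. Levels are CPM (counts scaled to library size after TMM normalisation). Changes are on the log2 scale, each ± its SE, from the quasi-likelihood test of edgeR, and a gene was called where its Benjamini-Hochberg adjusted p was below 0.05. Since the labels do not say whether the 3 libraries of a group were grown separately, p-values reflect only how these libraries vary, and that variation may be technical. Replicate 1 stood apart from replicates 2 and 3 in every group: a chi-square of counts per degree of freedom was 8.82 to 11.7 for pairs with replicate 1 and 2.48 to 6.64 for pairs without it. In primed cells, Krt7, Krt8, Krt18 and Krt19 in library 1 were 2.67, 1.97, 2.25 and 1.69 times the mean of libraries 2 and 3. The summed level of 15 fibroblast genes was 2.35 times as high in that library. Of the general pluripotency markers, Sox2 averaged 544, 557, 556 and 598 CPM in 2i, 25 µM, 50 µM and primed cells. Pou5f1 was low in every group, at 6.70, 6.53, 7.24 and 8.41 CPM in the same order. Of 30 other trophoblast genes, 5 had no count in any library, among them the giant cell hormone gene Prl3d1 and the spongiotrophoblast gene Tpbpa.

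After 6 days of 2i the 4 keratins were lower and Tfap2a was higher than in primed cells, while Tfap2c (−0.01 ± 0.16) and Gata3 (0.43 ± 0.26) were not called. In bulk RNA such as this, fewer cells of a type and less RNA per cell cannot be told apart. Of the 10 genes, 7 passed the filter, and of these 1 rose, 4 fell and 2 were not called. Over all genes tested 40.4% were called, 20.0% higher and 20.4% lower. For the 7, the median log2 change was −2.75, the value of Krt7, against −0.01 over all genes tested. Krt7 passed the low-count filter through its primed libraries, so this median is a description and no test of the set. Cdx2, Elf5 and Hand1 did not pass the filter and are given by their counts. The same 5 calls were made in every fit that left out 1 library, and in the fit without replicate 1 of every group.

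**Figure D1:**
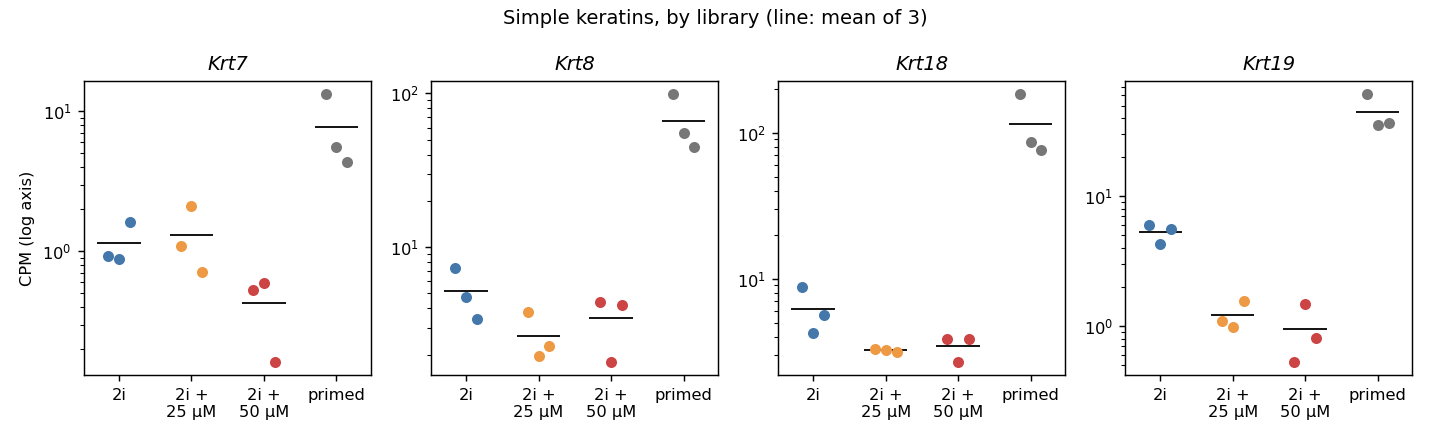
Levels of Krt7, Krt8, Krt18 and Krt19 in CPM (log axis), 1 point per library, with lines at the mean of 3 libraries for 2i, 2i + 25 µM, 2i + 50 µM and primed cells. Every primed library lies above every other library for each gene, and the 3 2i libraries of Krt19 (4.27 to 5.99 CPM) lie above all libraries with inhibitor (0.529 to 1.56 CPM).

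Tfap2a encodes an AP-2 factor expressed in trophoblast, surface ectoderm and neural crest (ENSMUSG00000021359, chr13:40715302-40738376, minus strand). It had 16.7, 22.4 and 21.0 CPM in the 2i libraries, 15.7, 20.5 and 17.3 CPM at 25 µM, 7.22, 11.5 and 11.2 CPM at 50 µM, and 2.64, 1.51 and 1.56 CPM in primed cells. All 9 libraries with 2i were above all 3 primed libraries, and all 50 µM libraries were below all those of 2i and of 25 µM. Tfap2a rose 10.4-fold in 2i against primed cells, by 3.38 ± 0.25 on the log2 scale (edgeR adjusted p = 4.3e-10). With inhibitor it was likewise higher than in primed cells, by 3.21 ± 0.25 at 25 µM and by 2.38 ± 0.27 at 50 µM (edgeR adjusted p = 1.01e-09 and 3.04e-07). Against 2i alone it did not pass the test at 25 µM (−0.17 ± 0.18, edgeR adjusted p = 0.742) and fell by 1.00 ± 0.19 at 50 µM, 2.00-fold (edgeR adjusted p = 0.00114). This fall at 50 µM was called whichever library was left out, with adjusted p up to 0.0103. Between the doses it fell by 0.83 ± 0.19 (edgeR adjusted p = 0.0343), a call that was lost without 2i replicate 3, 25 µM replicate 2 or 3, or 50 µM replicate 1 or 3, with adjusted p from 0.0517 to 0.207, and that had an adjusted p of 0.0015 with the replicate number as a block. Antisense genes overlap Tfap2a (Gm47061, Gm26688 and Gm47067). They held 51 counts over all libraries, against 962 for Tfap2a, and since the strand setting of the counting is not given, reads of the gene and its antisense partners cannot be told apart.

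Tfap2c, the AP-2 factor needed in trophectoderm and in germ cells (ENSMUSG00000028640, chr2:172549593-172558622, plus strand), had 102, 159 and 130 CPM in 2i, 101, 135 and 125 CPM at 25 µM, 70.8, 104 and 86.1 CPM at 50 µM and 132, 145 and 118 CPM in primed cells. The groups overlapped except for 50 µM and primed cells, where every 50 µM library was lower. In 2i against primed cells the change was −0.01 ± 0.16 (edgeR adjusted p = 0.954). Tfap2c fell by 0.58 ± 0.17 at 50 µM against 2i (1.49-fold, edgeR adjusted p = 0.0317), and the call was lost without 2i replicate 2 or 3 or 50 µM replicate 1 or 3, with adjusted p from 0.0796 to 0.118. It fell by 0.59 ± 0.17 at 50 µM against primed cells (edgeR adjusted p = 0.00967). Between 50 and 25 µM the change of −0.47 ± 0.17 was not called (edgeR adjusted p = 0.254), but it was called with the replicate number as a block (adjusted p = 0.000682). At 25 µM it was not called against 2i or against primed cells, with changes of −0.11 ± 0.16 and −0.13 ± 0.16.

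Gata3, a zinc finger factor of the trophectoderm (ENSMUSG00000015619, chr2:9857078-9890034, minus strand), lay between 1.62 and 6.74 CPM in all libraries. It had 5.53, 5.89 and 6.45 CPM in 2i, 6.74, 6.51 and 5.40 CPM at 25 µM, 3.52, 4.47 and 1.62 CPM at 50 µM and 4.20, 4.54 and 4.52 CPM in primed cells. The 2i and 25 µM libraries were all above the primed ones, yet the changes of 0.43 ± 0.26 and 0.49 ± 0.26 were not called (edgeR adjusted p = 0.208 and 0.143). At 50 µM Gata3 fell by 0.88 ± 0.28 against 2i, 1.84-fold, with every 50 µM library below every 2i library (edgeR adjusted p = 0.036). The call was lost in the fit of these 2 groups alone (0.0546) and without any 1 of the 3 2i libraries or without 50 µM replicate 1 or 3, with adjusted p from 0.0504 to 0.17. Against 25 µM the change of −0.94 ± 0.28 was not called (edgeR adjusted p = 0.114), and it was called with the replicate number as a block (adjusted p = 0.0329). The genes that overlap Gata3 held 1 count over all libraries.

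**Figure D2:**
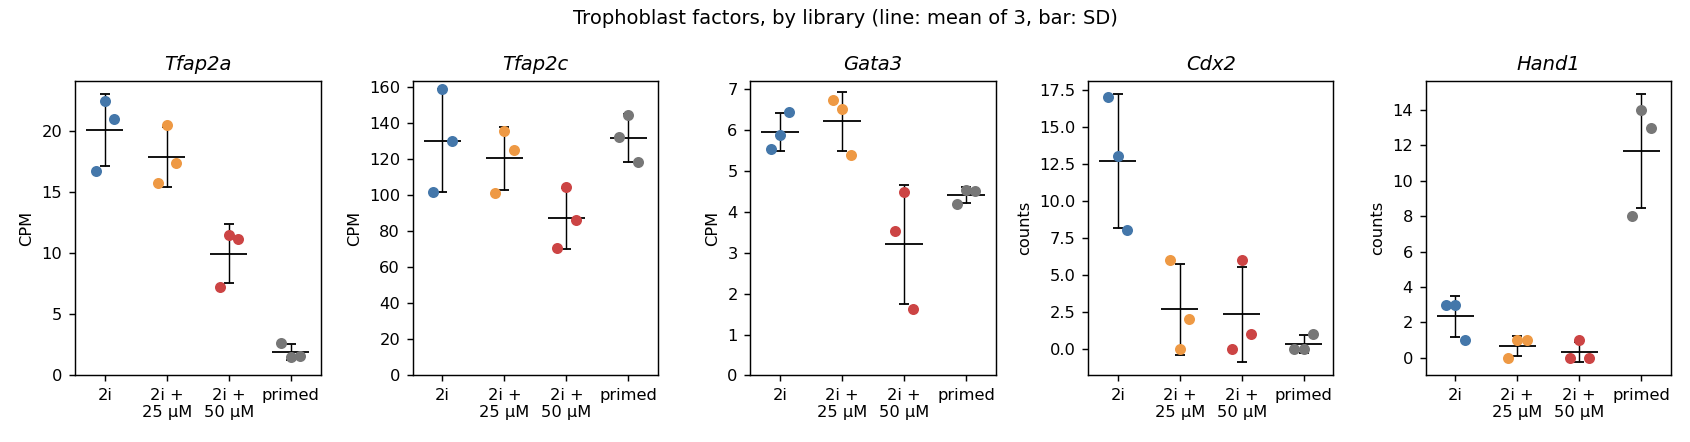
Levels of Tfap2a, Tfap2c and Gata3 in CPM and raw counts of Cdx2 and Hand1, 1 point per library, with the mean and SD of 3 libraries for 2i, 2i + 25 µM, 2i + 50 µM and primed cells. Tfap2a averages 20.0 CPM in 2i against 1.90 CPM in primed cells, and Hand1 has 8 to 14 counts in primed libraries and at most 3 in the others.

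Cdx2, the caudal-type homeobox factor of trophectoderm (ENSMUSG00000029646, chr5:147300805-147307270, minus strand), had 17, 13 and 8 counts in the 2i libraries, 6, 0 and 2 at 25 µM, 0, 6 and 1 at 50 µM, and 0, 0 and 1 in primed cells. Every 2i library was above every library of the other groups. Relative to library size, summed counts were 36.6 times as high in 2i as in primed cells, where the group held 1 count, with an exact 95% interval of 6.19 to 1485. They were 0.21 times the 2i level at 25 µM (0.0846 to 0.457) and 0.194 times at 50 µM (0.0729 to 0.439). Single libraries held most counts of both inhibitor groups: without 25 µM replicate 1 the ratio was 0.0778 (0.0091 to 0.301), and without 50 µM replicate 2 it was 0.0433 (0.00107 to 0.256). Against primed cells the ratio of 2i was 24.1 (4.07 to 977) without primed replicate 1, and without primed replicate 3 the primed group held no count. These intervals cover counting error only. In edgeR without the low-count filter, the adjusted p was 3.42e-06 for 2i against primed cells, 0.0634 for 25 µM against 2i and 0.00969 for 50 µM against 2i.

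Hand1, a basic helix-loop-helix factor of giant cells and also of early mesoderm (ENSMUSG00000037335, chr11:57828705-57832818, minus strand), had most counts in primed cells. It had 3, 3 and 1 counts in 2i, 0, 1 and 1 at 25 µM, 0, 1 and 0 at 50 µM and 8, 14 and 13 in primed cells. Every primed library was above every other library. The ratio of summed counts of 2i to primed cells, relative to library size, was 0.193 (exact 95% interval 0.0723 to 0.441, counting error only), and without the low-count filter edgeR's adjusted p was 0.00526. Between the inhibitor groups and 2i the counts of 0 to 3 a library were too few to show a difference at this depth. Elf5, an ETS factor that maintains trophoblast stem cells (ENSMUSG00000027186, chr2:103411688-103450989, plus strand), had 1 count over the 2i libraries, none at 25 or 50 µM and 3 in primed cells, all at or under the floor of 3 counts, and no fold is given.

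Krt8, the type II chain (ENSMUSG00000049382, chr15:101996698-102004482), and Krt18, its type I partner (ENSMUSG00000023043, chr15:102028180-102032027), are the genes whose upstream letters are given above. Krt8 had 7.37, 4.71 and 3.39 CPM in 2i, 3.76, 1.95 and 2.27 CPM at 25 µM, 4.41, 1.79 and 4.21 CPM at 50 µM and 98.5, 55.3 and 44.7 CPM in primed cells. Krt18 had 8.75, 4.27 and 5.65 CPM in 2i, 3.29, 3.25 and 3.12 CPM at 25 µM, 3.88, 2.68 and 3.89 CPM at 50 µM and 183, 87.1 and 75.7 CPM in primed cells. For both genes primed replicate 1 was the highest library and every 2i library was below the lowest primed one. In 2i against primed cells Krt8 fell 12.8-fold (−3.67 ± 0.37, edgeR adjusted p = 9.01e-06), and Krt18 fell 18.5-fold (−4.21 ± 0.39, edgeR adjusted p = 9.94e-06). Without primed replicate 1 the changes were −3.27 and −3.71. With inhibitor the difference from primed cells was −4.63 ± 0.41 at 25 µM and −4.27 ± 0.40 at 50 µM for Krt8. For Krt18 it was −5.15 ± 0.43 at 25 µM and −5.05 ± 0.43 at 50 µM, all 4 of them called.

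Against 2i alone neither gene of this pair was called at either dose. The log2 values of Krt8 were −0.96 ± 0.55 at 25 µM and −0.60 ± 0.53 at 50 µM (edgeR adjusted p = 0.496 and 0.495), and those of Krt18 were −0.94 ± 0.58 and −0.84 ± 0.57 (edgeR adjusted p = 0.537 and 0.371). Every Krt18 library at 25 or 50 µM was below every 2i library. With the replicate number as a block, Krt8 and Krt18 were called lower at 25 µM (edgeR adjusted p = 0.0328 and 0.0349) and Krt18 at 50 µM (0.0212). Krt18 was also called at 50 µM without primed replicate 1 (adjusted p = 0.0267). Between the doses the changes were 0.36 ± 0.60 for Krt8 and 0.10 ± 0.65 for Krt18, neither called. Of the counts of both genes together, Krt18 held 54.5% in 2i (exact 95% interval 47.7 to 61.2), 54.8% at 25 µM (45.2 to 64.1), 50.4% at 50 µM (41.4 to 59.4) and 63.6% in primed cells (61.9 to 65.2). The ratio of Krt18 to Krt8 counts in single libraries was 0.906 to 1.67 in 2i and 1.57 to 1.86 in primed cells, so these groups overlapped. The pseudogene Krt8-ps and Gm36026, which overlaps Krt8 on the other strand, had 0 counts.

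Krt19, the small type I keratin (ENSMUSG00000020911, chr11:100140810-100148665, minus strand), was called lower at both doses of inhibitor. It had 5.99, 4.27 and 5.65 CPM in 2i, 1.10, 0.976 and 1.56 CPM at 25 µM, 0.529, 1.49 and 0.809 CPM at 50 µM and 60.9, 35.3 and 36.6 CPM in primed cells. The inhibitor libraries lay below all those of 2i, and the 2i libraries below all those of primed cells. Krt19 fell 8.35-fold in 2i against primed cells (−3.06 ± 0.23, edgeR adjusted p = 9.93e-10). Against 2i it fell 4.26-fold at 25 µM (−2.09 ± 0.37, edgeR adjusted p = 0.00858) and 5.38-fold at 50 µM (−2.43 ± 0.40, edgeR adjusted p = 0.000339). The call at 25 µM was lost without 25 µM replicate 2 (0.0567) and in limma voom (0.0748), whereas that at 50 µM was made whichever library was left out. The doses did not differ by the test (−0.33 ± 0.53, edgeR adjusted p = 0.88). Against primed cells Krt19 was 35.6-fold lower at 25 µM (edgeR adjusted p = 1.35e-11) and 44.9-fold lower at 50 µM (edgeR adjusted p = 1.27e-11). Whether the response of Krt19 to the inhibitor differed from that of the other keratins was not tested.

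Krt7, a type II keratin of trophoblast and ductal epithelia (ENSMUSG00000023039, chr15:101411043-101430313, plus strand), had the fewest counts of the 4. It had 0.921, 0.884 and 1.61 CPM in 2i, 1.10, 2.11 and 0.71 CPM at 25 µM, 0.529, 0.597 and 0.162 CPM at 50 µM and 13.2, 5.55 and 4.36 CPM in primed cells, and every primed library was above all the others. Krt7 fell 6.74-fold in 2i against primed cells (−2.75 ± 0.46, edgeR adjusted p = 5.97e-05). The change was −2.11 without primed replicate 1 (adjusted p = 0.000482) and −1.98 without replicate 1 of every group (adjusted p = 0.00121). Against primed cells it was −2.57 ± 0.45 at 25 µM and −4.10 ± 0.55 at 50 µM (edgeR adjusted p = 9.31e-05 and 4.44e-06), or −1.93 and −3.46 without primed replicate 1. Gm671, on the other strand within Krt7, had 0 counts. At 50 µM each Krt7 value was below each 2i value, with 3, 4 and 1 counts against 6, 6 and 10, and the change of −1.35 ± 0.74 was not called (edgeR adjusted p = 0.235). At 25 µM it was 0.18 ± 0.59 (edgeR adjusted p = 0.933).

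**Figure D3:**
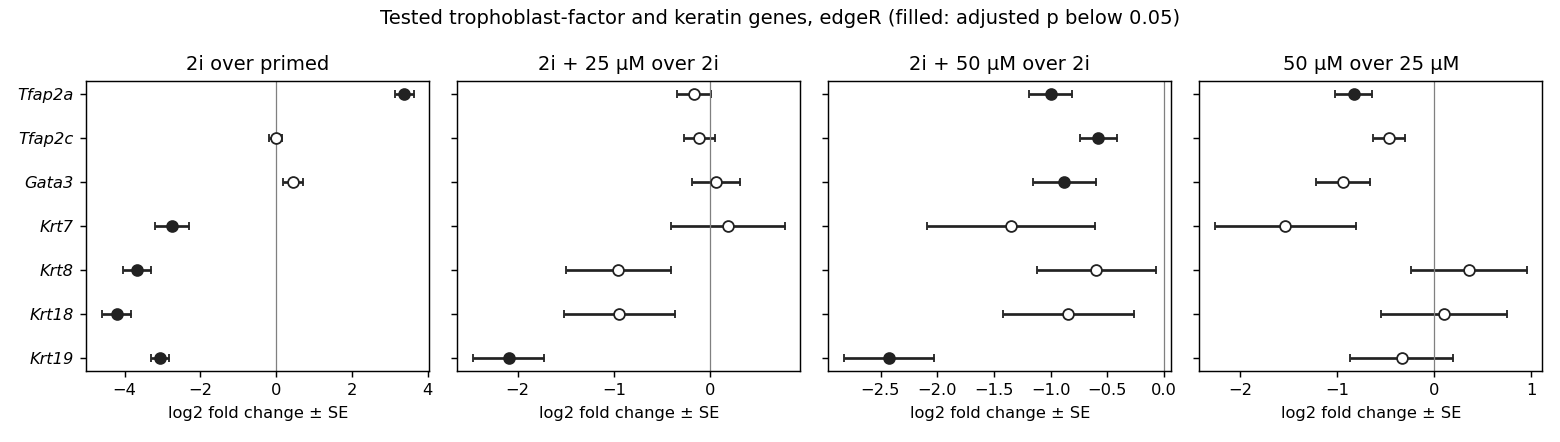
Log2 fold change ± SE from edgeR for the 7 tested genes in 2i over primed, 25 µM over 2i, 50 µM over 2i and 50 µM over 25 µM, with filled points where the adjusted p was below 0.05. In 2i over primed Tfap2a lies at 3.38 and Krt18 at −4.21, and in both dose panels over 2i Krt19 lies lowest, at −2.09 and −2.43.

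At 25 µM against 2i, edgeR called 0 rises and 1 fall (Krt19) among the 7 tested genes, with 3 falls when the replicate number was a block. Its unadjusted p was under 0.05 for 0 rises and 1 fall, DESeq2 called 0 and 1, and limma voom called none. Over all genes tested 0.937% were called, 0.454% higher and 0.484% lower. At 50 µM none of the 7 rose and 4 fell (Tfap2a, Tfap2c, Gata3 and Krt19), or 5 with the block, where 15.1% of all genes were called, 7.01% higher and 8.07% lower. Counts by unadjusted p under 0.05, by DESeq2 and by limma voom were also 0 rises and 4 falls. The 7 genes' median log2 change was −0.17 at 25 µM and −0.88 at 50 µM, with medians over all genes tested of 0.00 and 0.01. Between 50 and 25 µM 1 gene fell, Tfap2a, and 3 with the block (Tfap2a, Tfap2c and Gata3), where 1.16% of all genes were called, 0.181% higher and 0.975% lower. Against primed cells, 1 gene rose and 4 fell at 25 µM, where 42.3% of all genes were called (21.3% higher, 21.0% lower), and 1 rose and 5 fell at 50 µM, where 44.3% were called (22.6% higher, 21.7% lower). Each of these comparisons shares libraries with others.

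The summed level of the fibroblast markers, like the keratins, was lower in 2i than in primed cells. It came to 79.7, 65.3 and 59.7 CPM in the 2i libraries, 41.7, 40.8 and 37.5 CPM at 25 µM, 21.7, 18.5 and 18.0 CPM at 50 µM and 269, 107 and 122 CPM in primed cells. As with Krt7, Krt8, Krt18 and Krt19, primed replicate 1 was highest. Ddr2, a collagen receptor gene that was higher in 2i than in primed cells, held 63.3% of the counts of the 15 genes in 2i, 76.4% at 25 µM, 66.8% at 50 µM and 4.57% in primed cells. The other 14 genes, a division made after their values were seen, summed to 36.1, 22.5 and 16.3 CPM in 2i, 10.7, 9.44 and 8.24 CPM at 25 µM, 7.05, 5.22 and 7.12 CPM at 50 µM and 262, 99.2 and 114 CPM in primed cells. Without Ddr2 the sums of 2i and primed cells thus lay further apart, and with or without it every inhibitor library was below every 2i library. Of the 15 genes 8 were tested, and in 2i against primed cells 6 fell and 1 rose, also without primed replicate 1. The shares over all genes tested were 20.4% lower and 20.0% higher. Single libraries lacked 6 of the 15 in 2i, 5 to 7 at 25 µM, 6 to 8 at 50 µM and 4 in primed cells. Among those called, the smooth muscle and myofibroblast gene Tagln changed by −4.28 ± 0.60, the collagen gene Col1a1 by −1.83 ± 0.31, the protease inhibitor gene Timp3 by −2.68 ± 0.29 and Ddr2 by 2.49 ± 0.14. At 25 µM 2 of the 8 fell against 2i (6 with the block), and at 50 µM 4 fell (6 with the block), with Col1a1 at −3.21 ± 0.52. Of all genes tested, 0.484% were called lower at 25 µM and 8.07% at 50 µM. Of the other markers, Acta2 had 94 counts over the 2i libraries and 969 over the primed ones, Tagln 39 and 745, Col1a1 140 and 483, Col1a2 30 and 217, and Thy1 93 and 147. Fap had no count in any library, Dcn had 2 in 2i and 0 in primed cells, Postn 3 and 0, Lum 0 and 0, and Col3a1 0 and 10. The part of such cells in the keratin values was not tested.

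**Figure D4:**
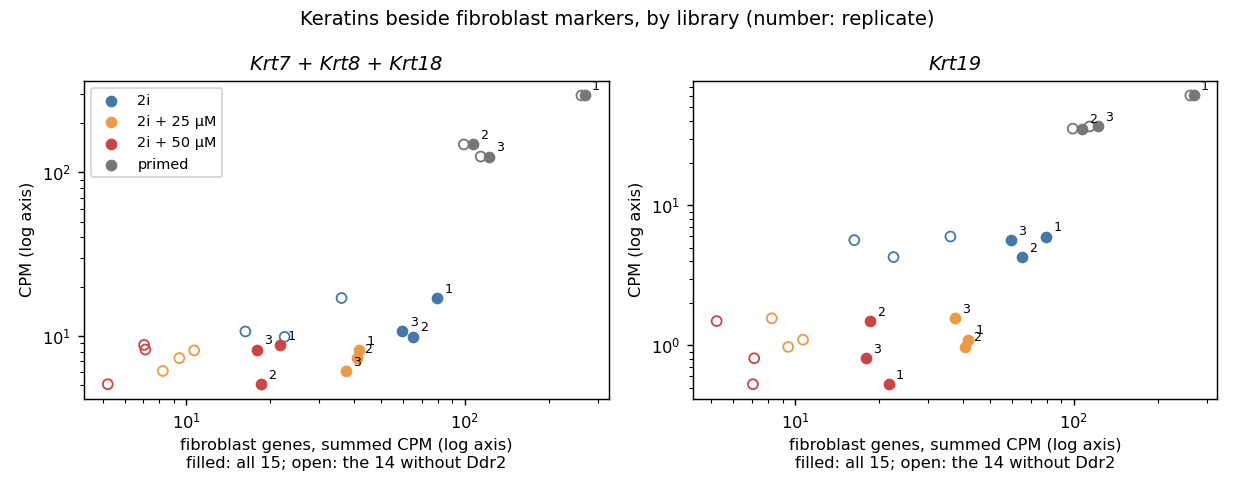
Summed CPM of Krt7, Krt8 and Krt18 (left) and CPM of Krt19 (right) against the summed CPM of fibroblast genes, log axes, with a filled point per library, numbered by replicate, for all 15 genes and an open one for the 14 without Ddr2. Primed replicate 1 is at the top right of both panels, at 269 CPM for the 15 and 262 for the 14, and the 50 µM libraries are furthest left, at 18.0 to 21.7 CPM for the 15 and 5.22 to 7.12 for the 14.

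Markers of other epithelia and of endoderm were set beside the keratins too. The summed level of 10 surface ectoderm genes was 63.0 to 84.5 CPM in 2i and 167 to 223 CPM in primed cells, and 3 of them were tested, of which 2 fell (1 without primed replicate 1). Most counts of that sum were of Sfn, with 1022 in 2i and 3171 in primed cells. For 18 primitive endoderm genes the sum was 607 to 724 CPM in 2i and 643 to 897 CPM in primed cells, and of 8 tested 2 rose and 2 fell (2 and 1 without primed replicate 1). The shares over all genes tested were 20.0% higher and 20.4% lower. Sparc held most of these counts, 10579 in 2i and 9640 in primed cells. The laminin gene Lamb1 was among the falls, at −1.89 ± 0.13, and with inhibitor against 2i it fell by 1.00 ± 0.15 at 25 µM and fell by 1.64 ± 0.16 at 50 µM. Between inhibitor and 2i no surface ectoderm gene was called at either dose by edgeR, with 0 at an unadjusted p under 0.05 and 0 by DESeq2 or limma voom. Their part in the keratin values was not tested.

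Filament genes outside this set were in part lower too. Of 23 other intermediate filament genes 9 passed the filter, and in 2i against primed cells none rose and 5 fell, with a median of −0.61 (1 rose and 5 fell without primed replicate 1). Of all genes tested, 20.0% were called higher and 20.4% lower. By unadjusted p under 0.05 edgeR gave 0 rises and 6 falls, and DESeq2 and limma voom each called 0 and 5. Krt17, a type I keratin of stratified epithelia and their appendages, had 0.154 CPM on average in 2i and 15.1 CPM in primed cells, a change of −6.45 ± 0.43. Krt42, another type I keratin, changed by −3.28 ± 0.30, and the nuclear lamin genes Lmna and Lmnb2 by −1.33 ± 0.13 and −0.57 ± 0.10. At 25 µM none of the 9 was called against 2i by edgeR, DESeq2 or limma voom, the unadjusted p was under 0.05 for 1 increase and 1 decrease, and 1 rose with the replicate block. At 50 µM Lmnb2 rose by 0.46 ± 0.10 and the muscle filament gene Des fell by 1.06 ± 0.33, where 7.01% of all genes were called higher and 8.07% lower.

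Genes of epithelial adhesion and epithelial identity were mostly lower in 2i than in primed cells. All 31 were tested, and 1 rose, 24 fell and 6 were not called, with a median of −1.26 and the same counts without primed replicate 1. Among all genes tested 20.0% were called higher and 20.4% lower. Esrp1, an epithelial splicing regulator, averaged 1.97 CPM in 2i and 92.2 CPM in primed cells (−5.55 ± 0.20). The cell surface adhesion gene Epcam averaged 84.5 CPM in 2i and 304 CPM in primed cells (−1.85 ± 0.11). The tight junction gene Cldn6 changed by −2.86 ± 0.14 and the desmosome gene Pkp2 by −1.96 ± 0.14, while Dsg2, a desmosomal cadherin named after its value was seen as the gene that rose, was higher by 1.30 ± 0.13. Cdh1, the most counted gene of the list, averaged 872 CPM in 2i and 828 CPM in primed cells. Its change of 0.07 ± 0.11 was not called (edgeR adjusted p = 0.619). At 25 µM 1 of the 31, Pkp2, fell against 2i (−0.89 ± 0.17), while with the replicate block 2 rose and 1 fell. At 50 µM 2 rose and 5 fell, with a median of the list of −0.04, where 7.01% of all genes were called higher and 8.07% lower. The falls included Pkp2 at −1.22 ± 0.17, the epithelial transcription factor gene Grhl2 at −1.44 ± 0.25 and the claudin gene Cldn3 at −1.32 ± 0.27.

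**Figure D5:**
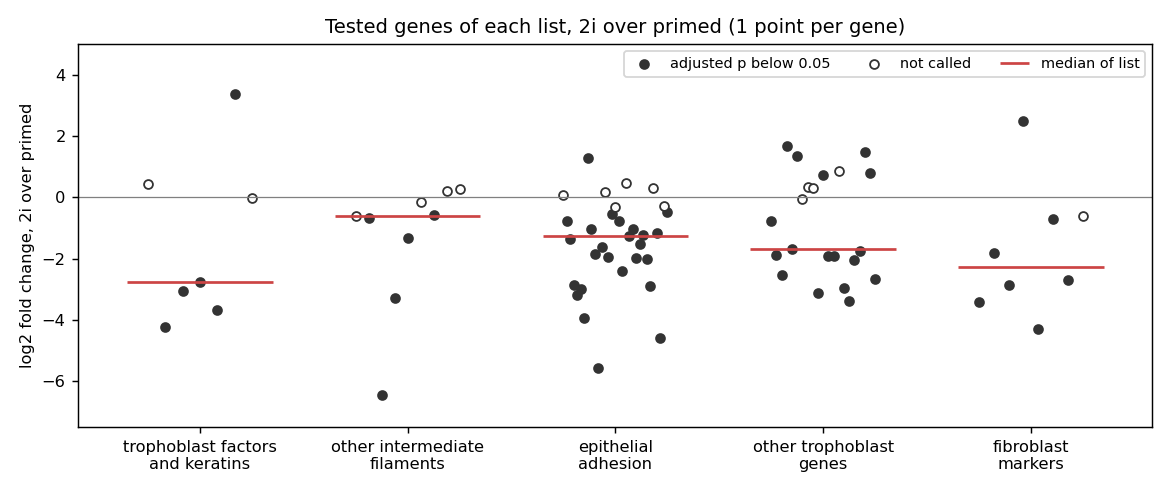
Log2 fold change in 2i over primed for each tested gene of the trophoblast factors and keratins, of 3 related gene lists and of the fibroblast markers, with filled points where the edgeR adjusted p was below 0.05 and a line at each median. The medians are −2.75 for the 7 tested trophoblast factors and keratins, −0.61 for other intermediate filaments, −1.26 for epithelial adhesion, −1.69 for other trophoblast genes and −2.26 for fibroblast markers.

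Among 30 other genes of trophoblast stem cells and their descendants 21 were tested, and in 2i against primed cells 5 rose, 12 fell and 4 were not called (median −1.69, and 6 rose and 11 fell without primed replicate 1). Shares over all genes tested were 20.0% higher and 20.4% lower. The imprinted placental genes Peg10 and Phlda2 changed by −2.97 ± 0.15 and −3.39 ± 0.20, and the FGF receptor gene Fgfr2 by −3.11 ± 0.30. Elf3, an epithelial ETS factor gene, rose by 1.35 ± 0.11. None of the 21 was called at 25 µM against 2i by edgeR (the unadjusted p was under 0.05 for 3 increases and 4 decreases), and 1 rose with the block, in DESeq2 and in limma voom. At 50 µM 3 rose and 6 fell, where 7.01% of all genes were called higher and 8.07% lower. The ligand gene Bmp4 changed by 2.02 ± 0.21, the homeobox gene Msx2 by 1.24 ± 0.31, Peg10 by −1.15 ± 0.18 and Cited1 by −1.38 ± 0.28. Bmp4 averaged 42.5, 81.8, 172 and 245 CPM in 2i, 25 µM, 50 µM and primed cells, so at 50 µM it stayed below its primed level.

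Of 8 AP-2 relatives and cofactors 5 were tested. The AP-2 coactivator gene Cited1 averaged 22.3 CPM in 2i, 13.8 CPM at 25 µM, 8.43 CPM at 50 µM and 7.02 CPM in primed cells. Like Tfap2a it rose in 2i against primed cells, by 1.66 ± 0.29, and fell at 50 µM against 2i. Cited2, another coactivator gene, changed by −0.89 ± 0.15 in 2i against primed cells and was not called at either dose. Of 28 genes of the Hippo, Notch and BMP pathways, which act upstream of Cdx2 and Gata3 in the mouse embryo, 8 rose and 9 fell in 2i against primed cells (9 and 8 without primed replicate 1). The lists share genes: Tead4, Bmp4 and Id2 of these 28, and Cited1 above, are also among the other trophoblast genes and are counted there too. Among all genes tested, 20.0% were called higher and 20.4% lower in that comparison. The BMP target gene Id1 changed by −4.92 ± 0.27 and the ligand gene Bmp4 by −2.53 ± 0.21. Wwtr1, a coactivator gene, changed by 1.33 ± 0.11 and the Notch pathway factor gene Rbpj by −0.99 ± 0.10. At 25 µM none of the 28 was called against 2i by edgeR, with an unadjusted p under 0.05 for 2 increases and 3 decreases. With the block 2 rose and 1 fell, and DESeq2 and limma voom each called 1 higher. At 50 µM 3 rose and 3 fell, where 7.01% of all genes were called higher and 8.07% lower. Those called included Id3, another BMP target, at 2.34 ± 0.39, the angiomotin gene Amotl1 at −0.90 ± 0.15 and Yap1 at −0.29 ± 0.08.

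The genes whose group means were most like those of the 3 most abundant of the 10 were found among 8473 candidates, by the root mean square difference of centred log2 CPM over the 4 groups. Candidates had a mean log2 CPM of at least 3 and no predicted-gene name, so genes at lower levels were not compared. For Tfap2c they were Cstf2t (0.02), Gstm1 (0.04) and Cog1 (0.06). For Krt18 they were Pou3f1 (0.28), S100a6 (0.33) and H19 (0.33), and for Krt8 they were Pou3f1 (0.25), Igsf9 (0.27) and S100a6 (0.32). The 4 group means rest on libraries that all genes share, so the likeness is a description.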

How the data were processed

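Gene expression was measured in 12 bulk libraries, made per the labels' protocols with QuantSeq 3′ mRNA-Seq from total RNA primed with oligo-dT. The values are raw gene counts, as deposited by the authors in 1 table per library, with 56805 features, of which 114 spike-in features with 2 counts in all were left out. FastQC, STAR, DESeq2 1.32.0 and GRCm38 are named per the submitters' processing notes; which tool and annotation were used for counting, and whether strand or molecular identifiers were used, is not stated there. Symbols were matched for 52073 of 56691 IDs, and positions are those of GENCODE on GRCm38.

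Counts were fitted in R 4.3.3 with edgeR 4.0.16 (TMM, filterByExpr, robust quasi-likelihood F test, all 12 libraries in 1 fit, Benjamini-Hochberg over 13230 genes, adjusted p below 0.05). An SE is the log2 fold change divided by the square root of F. Intervals of count ratios and shares are exact, at 95%, and cover counting error only. On simulated data for 2i against primed with 13230 genes, the fit recovered 94.1% of changes of 4-fold and 65.3% of 2-fold, and made 14 false calls. The simulation changed 200 genes, whereas 5346 were called in the data, so its rates may not carry over. Alternatives were DESeq2 1.42.0, limma 3.58.1 voom, no filter, the 2 groups alone, a replicate block, leaving out each library, and, chosen after seeing the data, leaving out replicate 1 of every group. Deviations of same-numbered libraries from their group means correlated at 0.155 to 0.314 between 25 µM and 2i, 0.115 to 0.249 between 50 µM and 2i and 0.134 to 0.286 between the doses. Against primed cells the values were 0.0908 to 0.244 for 2i, 0.0115 to 0.163 at 25 µM and 0.0511 to 0.175 at 50 µM. The numbers, which come from the labels, thus appear to pair the groups with 2i, and less clearly those with primed cells. The main fit did not use this pairing, so its calls between the groups with 2i may differ from those of the block. The genes, lists and tests were chosen with earlier results of these data known. All 10 genes are named, and from each other list up to 4 called genes with the smallest p. Pou5f1, Cdh1, Dsg2 and the fibroblast, Sfn and Sparc counts were added after their values were seen.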

Additional observations from a re-analysis of the deposited data

How the results depend on the processing

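No log2 fold change of the 7 tested genes changed sign as a called value under any alternative: of 840 values, 815 stayed on the same side of the threshold, 17 lost a call and 8 gained one. Against primed cells the counts of called genes among the 7 did not move by over 1.5 times under any alternative; leaving out 1 library gave 5 in 2i, 5 at 25 µM and 6 at 50 µM each time. For 25 µM against 2i the count of 1 became 0 in limma voom, 3 with the replicate block, and 0 to 1 when 1 library was left out. For 50 µM against 2i the count of 4 became 2 to 5 when 1 library was left out, and 5 with the block. For 50 against 25 µM the count of 1 became 2 without the low-count filter, 3 with the replicate block, 2 without replicate 1 of every group, and 0 to 1 when 1 library was left out. Why these counts moved was not tested. Over all genes tested, the 124 calls of 25 µM against 2i became 268 without the filter, 81 with these 2 groups alone, 627 with the block and 30 to 159 when 1 library was left out. The 1994 of 50 µM against 2i became 3240 with the block and 1217 to 2145 when 1 library was left out, and the 153 between the doses became 329, 542 and 238 without the filter, with the block and without replicate 1 of every group, and 38 to 205 when 1 library was left out. Beyond the calls named above, the replicate block changed no call of the 7 genes; in 2i against primed cells it called 5, with correlations of same-numbered deviations of 0.0908 to 0.244. With few counts for Cdx2, Elf5 and Hand1, differences between the inhibitor groups were not detectable at this depth.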
